A study of Mus musculus with 21 samples.

Results

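The diet contrast set all 11 hearts of mice fed a high-fat diet (HFD) against all 10 hearts of mice fed chow. Its members were the libraries whose titles give the diet as HFD or chow, which is 21 of the 21 libraries of the series. All mice were males of the inbred strain C57BL/6NJ, aged 8 to 10 weeks at the start. For 10 weeks they ate chow or a diet in which fat supplied 60% of the calories. Each diet was crossed with a retro-orbital injection of an adeno-associated virus: AAV-Renin, or a null vector as control. The sample labels name the control hearts novirus, and that these are the null-vector mice is not stated in them. Hearts were frozen 6 weeks after injection. The groups held 4 chow novirus, 6 chow Renin, 6 HFD novirus and 5 HFD Renin hearts. The promoter that drives renin in the vector, and how many litters or cages the mice came from, are not given in the sources used here, so p-values measure the spread between these hearts. The series uses HFD and renin combined to model HFpEF, a heart failure in which the ejection fraction is preserved, and the diet contrast asks what HFD does over both vector backgrounds.

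The adult heart burns mostly fatty acids. These enter the cardiomyocyte through CD36 and lipoprotein lipase, are carried by the binding protein FABP3, cross into mitochondria on the carnitine shuttle and are shortened by beta-oxidation. The nuclear receptor PPAR alpha is activated by fatty acids and raises transcription of many of these genes, while SREBP factors drive the genes that make fatty acids and cholesterol. Glucose enters through the insulin-regulated transporter GLUT4 and the basal transporter GLUT1, and pyruvate dehydrogenase gates its oxidation against that of fat.

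Libraries held between 18.7 and 29.3 M estimated reads, and reads of mitochondrially encoded genes made up 29.8% to 38.2% of a library. Cardiomyocyte markers were present in each library, with a summed level of 44869 to 66761 CPM (reads scaled to a common library size with TMM factors). Total reads were higher on HFD by 5.05 M without renin and by 1.61 M under renin (exact permutation test, both tails, of diet within vector strata, p = 0.00108, adjusted over 3 values 0.00325). The mitochondrial share was higher by 3.14 and 0.984 percentage points (exact permutation p = 0.0141, adjusted 0.0141). A clock score, the mean log2 CPM of Arntl, Npas2 and Clock minus that of period and output genes, was higher by 0.40 and 0.23 (exact permutation p = 0.0028, adjusted 0.00421). A score of central neuron, oligodendrocyte and astrocyte markers, as mean log2 CPM, lay between 3.10 and 3.81 in the chow Renin hearts and between 1.28 and 2.18 in the 15 other hearts. The summed level of 10 central neuron markers was 283 to 430 CPM in chow Renin hearts, against 103 to 173 CPM in the others, and none of the 26 markers of these 3 lists was at 0 reads in all libraries. Because the diet effect under renin is measured against the chow Renin hearts, this score moves with it. The summed level of the 8 astrocyte markers overlapped between the groups, at 376 to 471 CPM in chow Renin hearts and 310 to 504 CPM in the others.

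**Figure D1:**
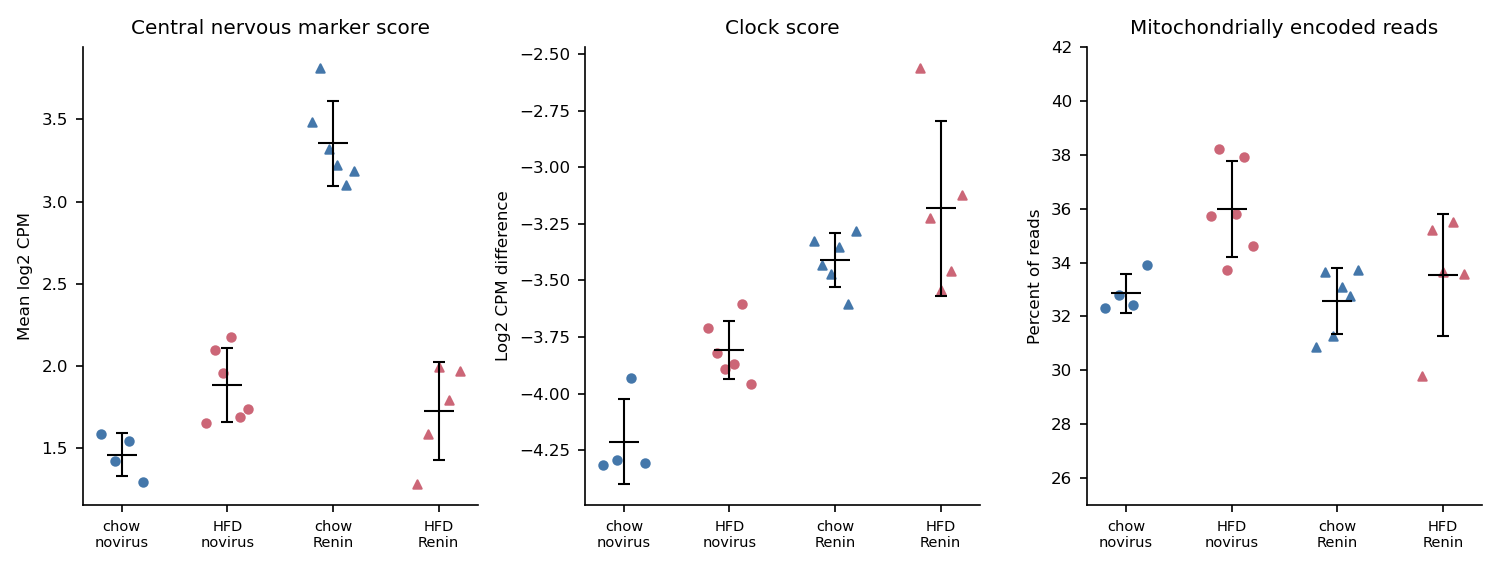
Points are libraries, with chow in blue and HFD in red, circles for novirus and triangles for Renin, and bars give the group mean and SD (n = 4 to 6). The left axis is the mean log2 CPM of central nervous markers, the middle axis the clock score as a log2 CPM difference and the right axis the percent of reads from mitochondrially encoded genes. The 6 chow Renin hearts stand above all others on the left, at 3.10 to 3.81.

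Over both vector strata, 427 genes rose (2.86% of the 14910 tested) and 796 fell (5.34%) on HFD, in an additive model with the vector as block (edgeR's quasi-likelihood test, adjusted p under 0.05). The changes were mostly small: called genes had a median log2 change of 0.46 in size. A change of 2-fold or more was seen for 23 genes that rose and 277 that fell. Among the 5560 tested genes with a mean of at least 20 CPM, 281 rose and 154 fell. That balance depended on the fit: in a fit restricted to 5565 genes of at least 20 CPM, 177 rose and 214 fell. Of the genes that rose, 425 had a positive fold change in both strata and 2 (Trp53inp2 and 1190002N15Rik) did not. Of those that fell, 612 were lower in both strata and 184 were lower under renin with a fold change above 0 without it. Calls with the same sign in both strata thus came to 1037, or 6.96% of the genes tested. Among all genes tested, 50.73% had the same sign in both strata. The agreement in sign between the strata was examined on these same calls, and a called gene tends to have it, since both strata enter the call.

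The strata contributed unequally. Without renin 10 genes were called (0.0671%; 1635 had an unadjusted p under 0.05, and DESeq2 called 123), and under renin 3209 were (21.5%). The difference between the strata was itself called for 1552 genes (10.4%), among them 351 of the additive calls. All 184 genes of opposite sign were among these, with a median log2 fold change of 0.18 without renin and -1.82 under renin. In fits on each stratum's own libraries, which share none, 53.16% of the genes higher under renin and 40.32% of those lower under renin had the same sign without renin, against 50.42% of all genes. Among genes of at least 20 CPM these shares were 50.86% and 62.36%.

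Adding the central nervous score to the model left 161 additive calls, and adding the clock score left 231. The count ranged from 642 to 1732 when 1 library was left out. It fell by more than 1.5 times without chow Renin replicate 1 (711 genes), 2 (707), 3 (776) or 4 (742), and without HFD Renin replicate 1 (712), 2 (678), 3 (744) or 5 (642). Of 117 genes named by rule 107 were called. None of these 107 changed sign under an alternative or without 1 library, and 24 kept their call under all of them. Of the 10 not called, Ppara, Hk2 and Ucp3 changed sign with the clock score in the model. These 24 include Fabp3, Cidea, Mgll, Fasn, Acsl4, Idi1, Slc2a1, Pcx, Kyat3, Bckdhb, Dbt, mt-Nd3, Nr4a2 and Dusp5, each described below.

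**Figure D2:**
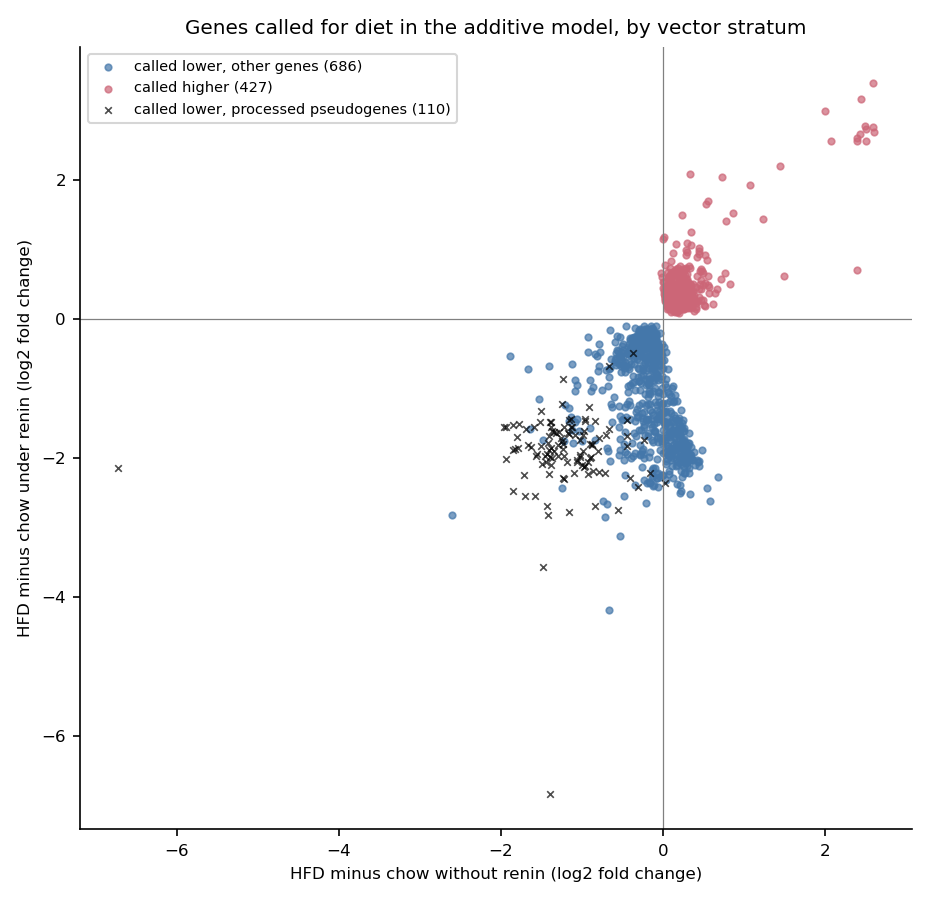
Each point is a gene called for diet in the additive model, with its log2 fold change (HFD minus chow) without renin on the x axis and under renin on the y axis. Genes called higher (427, red) sit in the upper right but for 2. Genes called lower (blue) lie below 0 on the y axis, the 184 of opposite sign to the right of 0 on the x axis, and 109 of the 110 processed pseudogenes (crosses) below 0 on both.

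Several genes that carry fatty acids into the cardiomyocyte and its mitochondria rose on HFD, among them Fabp3, Cd36, Dbi, Slc25a20, Cpt2 and Cpt1b, with log2 fold changes of 0.19 to 0.46. Fabp3, the fatty acid binding protein of the heart (chromosome 4, 130308595 to 130315463, plus strand, GRCm38), was among 5 genes of the 14910 (0.0335%) whose HFD hearts all lay above all chow hearts in both strata. Its level was 2005, 2029, 1807 and 2022 CPM in the chow novirus hearts, and 2069 (lowest), 2595 (median) and 3028 (highest) in the HFD novirus hearts. Under renin it was 1876, 1999 and 2279 (lowest, median, highest) on chow, and 2643, 2877, 2576, 2601 and 2647 on HFD. The groups did not overlap in either stratum, and the log2 fold change was 0.39 ± 0.06 (SE), adjusted p = 0.000345, with 0.37 without renin and 0.40 under renin. The other 4 such genes were Cd151, Emc3, Cmtm3 and Kcnj14.

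Of 17 tested genes for fatty acid uptake and binding 3 rose and 3 fell, with a median log2 fold change of 0.06 beside -0.0015 over all genes. Cd36, the fatty acid translocase, ranged from 1126 to 1507 CPM (median 1211) on chow and from 1303 to 1618 (median 1389) on HFD. Without renin the groups did not overlap, under renin they overlapped through chow Renin replicate 6, at 1507 CPM, and the log2 fold change was 0.21 ± 0.05, adjusted p = 0.0217. The call held in 20 of 21 fits without 1 library. Dbi, the acyl-CoA binding protein, rose by 0.46 ± 0.09 on the log2 scale. Lpl, which releases fatty acids from lipoproteins at the vessel wall, fell by 0.28, and the acyl-CoA ligase Acsl4 fell by 0.51. Acsl4 fell more under renin (the difference between strata had adjusted p = 0.00996).

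Of 28 tested genes of the carnitine shuttle and beta-oxidation 6 rose and 1 fell, 23 had a positive fold change, and the median was 0.14 (0.20 without renin and 0.07 under renin). The shuttle genes called were the carnitine carrier Slc25a20 (0.32 ± 0.07), Cpt2 (0.26), which rebuilds acyl-CoA inside the mitochondrion, and Cpt1b (0.19), the muscle form of the rate-limiting first step. Slc25a20 was 194, 190, 161 and 202 CPM in chow novirus hearts, 189 to 283 (median 240) in HFD novirus hearts, 165 to 227 (median 174) in chow Renin hearts, and 206, 246, 229, 227 and 205 in HFD Renin hearts. Its groups overlapped at their edges in both strata. In beta-oxidation itself Decr1 (0.36), needed for unsaturated fatty acids, and the acyl-CoA dehydrogenases Acads (0.26) and Acadl (0.20) rose. Ehhadh, a peroxisomal enzyme, fell by 0.44, with -0.42 and -0.47 in the strata. The count of genes that rose was 4 to 11 when 1 library was left out, with 11 without chow Renin replicate 6. It was 1 when the central nervous score was in the model and 0 with the clock score.

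Among 25 tested PPAR alpha targets 8 rose and 2 fell, with a median of 0.20 (0.30 without renin, 0.15 under renin). Slc25a20, Cpt1b, Acadl, Cd36, Fabp3, Lpl and Ehhadh are among them, so the lists share members. Cidea, a lipid droplet protein, rose by 0.40 ± 0.07 and Pex11a, a peroxisome factor, by 0.31 ± 0.09. The count that rose fell to 3 without chow Renin replicate 1, to 4 without chow Renin replicate 2 or 3 or HFD Renin replicate 3, and to 5 without chow Renin replicate 4 or 5, HFD novirus replicate 5 or HFD Renin replicate 2 or 4. With either score in the model 2 rose. The Pex11a call held in 5 and the Cpt1b call in 10 of 21 fits without 1 library.

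Several textbook PPAR alpha targets were not called. Pdk4, which shuts pyruvate dehydrogenase when fat is burned, was 334, 468, 742 and 664 CPM in chow novirus hearts and 469 to 900 (median 731) in HFD novirus hearts. Under renin it was 583 to 974 (median 746) on chow and 622, 720, 686, 854 and 977 on HFD. The groups overlapped throughout, and the log2 fold change was 0.16 ± 0.14, adjusted p = 0.53. The log2 values of the others were 0.30 for the acyl-CoA thioesterase Acot1, 0.47 for the lipase inhibitor Angptl4, 0.24 for the lipid droplet coat Plin5 (adjusted p = 0.0556), -0.26 for the uncoupling protein Ucp3 and -0.13 for Cpt1a. Ppara itself had 0.08 ± 0.26 and the coactivator Ppargc1a 0.13. Of the 25 tested PPAR, PGC-1 and ERR regulators 0 rose and 1 fell, near the shares of 2.86% higher and 5.34% lower over all genes. Of those 25, Nr4a1 fell by 1.02, from a median of 69.0 to 28.3 CPM, with a call that held in 9 of 21 fits without 1 library.

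Of 24 tested lipid droplet and triglyceride genes, Cidea and Mgll rose and Dgat2 fell, and the median was 0.02. Over all genes the shares were 2.86% higher and 5.34% lower. With either score in the model 2 rose and 0 fell. Mgll, which splits monoglycerides, ranged from 102 to 148 CPM on chow (median 128) and from 139 to 216 on HFD (median 150), and its log2 fold change was 0.33 ± 0.07, with 0.34 and 0.31 in the strata. Dgat2, the last step of triglyceride synthesis, fell by 0.27. Without chow Renin replicate 6, 4 genes of the list rose.

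Of 20 tested genes for fatty acid synthesis and desaturation 6 fell and 1 rose, with a median of -0.15. With either score in the model 2 fell. Fasn, fatty acid synthase (chromosome 11, 120805846 to 120824547), was 30.7, 37.0, 50.3 and 34.2 CPM in the chow novirus hearts and 22.9, 29.1 and 31.4 (lowest, median, highest) in the HFD novirus hearts. Under renin it was 40.1, 44.2 and 53.4 on chow and 23.0, 34.5, 28, 24.9 and 28.9 on HFD. The Renin groups did not overlap and the novirus groups did at their edge, and Fasn fell by 0.58 ± 0.09 (adjusted p = 0.000631), with -0.41 and -0.71 in the strata. Acaca, acetyl-CoA carboxylase, the step before it, had HFD hearts all below chow hearts in both strata. Chow values were 11.3 to 16.6 CPM and HFD values 8.12 to 12, and it fell by 0.40 ± 0.06 (adjusted p = 0.000631). The regulator Srebf1 fell by 0.30, the stearoyl-CoA desaturase Scd1 by 0.57, and the elongases Elovl6 and Elovl7 by 0.82 and 0.92. Elovl6 had -0.05 ± 0.20 without renin and -1.41 ± 0.17 under renin, and that difference was called (adjusted p = 0.000759). The Scd1 call held in 5 of 21 fits without 1 library, and 1 of the 4 chow novirus hearts (replicate 3, 32.5 CPM) was above the other 3 at 14.2 to 14.7. Me1, malic enzyme, which supplies reducing power for synthesis, rose by 0.34 ± 0.07, opposite to the synthesis enzymes.

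None of the 28 tested cholesterol genes rose and 6 fell, among them Sqle, Idi1, Fdps and the regulator Srebf2. For each of these 4 the difference between strata was called, with the larger decrease under renin. Idi1, isopentenyl diphosphate isomerase, was 11.1, 10.1, 9.56 and 11.3 CPM in chow novirus hearts against 7.96 to 9.82 (median 8.88) in HFD novirus hearts, and 21.2 to 26.7 (median 22.6) in chow Renin hearts against 8.53, 8.04, 8.33, 9.71 and 8.88 in HFD Renin hearts. The chow Renin hearts stood alone. It had -0.25 without renin and -1.42 under renin (difference, adjusted p = 5.86e-07). The list's median was -0.04 without renin and -0.30 under renin. The count was 11 without chow novirus replicate 3, and 2 with the central nervous score, which is high in the same chow Renin hearts.

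Of 32 tested genes for glucose uptake, glycolysis and glycogen 6 fell, 5 of them transporters, and 1 rose, and the list's median was 0.04. With the central nervous score in the model 5 fell and 1 rose, and with the clock score 1 fell and 0 rose. Slc2a4, GLUT4 (chromosome 11, 69942539 to 69948188), was 381, 391, 314 and 371 CPM in chow novirus hearts and 239, 297 and 332 (lowest, median, highest) in HFD novirus hearts. In chow Renin hearts it was 253, 279 and 297, and in HFD Renin hearts 228, 205, 259, 243 and 244. The groups overlapped at their edges in both strata, and Slc2a4 fell by 0.27 ± 0.06 (adjusted p = 0.00619), with -0.32 and -0.23 in the strata. Slc2a1, GLUT1, was 24.7, 27.9, 23.5 and 24.9 CPM on chow without renin and 16.6 to 23.2 (median 20.8) on HFD. Under renin it was 28.9 to 38.4 (median 34.6) on chow and 24.4, 20.6, 22.7, 15.9 and 21.4 on HFD, so the groups did not overlap in either stratum. Slc2a1 fell by 0.52 ± 0.08 (adjusted p = 0.000547). Slc2a3, Slc2a12 and Slc2a8 fell by 0.54, 0.46 and 0.23, and Slc2a3 had -0.12 without renin and -0.88 under renin (difference, adjusted p = 0.0173). Eno3, the muscle enolase, fell by 0.25. Pfkl, a phosphofructokinase subunit of the committed step of glycolysis, rose by 0.40 ± 0.07, from a chow median of 142 CPM to 190 CPM. The hexokinases were not called in the additive model: Hk2 had 0.00 and Hk1 -0.11. Hk1 fell without renin (208, 221, 187 and 187 CPM on chow against 138 to 170 on HFD, log2 -0.34, adjusted p = 0.0492), and had 0.09 under renin, a difference with adjusted p = 0.00229.

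At the pyruvate dehydrogenase gate 3 of 15 genes fell and none rose. Pcx, pyruvate carboxylase, which feeds pyruvate into oxaloacetate, was 44.8, 41.0, 44.6 and 41.8 CPM in chow novirus hearts and 23.7, 30.9 and 36.0 (lowest, median, highest) in HFD novirus hearts. Under renin it was 29.5, 38.7 and 45.2 on chow and 22.8, 30.04, 28.9, 23.5 and 25.7 on HFD. Without renin the groups did not overlap, and under renin they met at their edges. Pcx fell by 0.52 ± 0.07 (adjusted p = 0.000195), with -0.49 and -0.55 in the strata. The kinase Pdk2 and the phosphatase Pdp2 fell by 0.18 and 0.39, in 12 and 10 of 21 fits without 1 library. The count was 1 without chow Renin replicate 3, 4 or 5, or HFD Renin replicate 1 or 5. Of 36 insulin and IGF genes, the receptor substrate Irs2 and the feedback inhibitor Socs3 fell by 0.69 and 0.51, and 1 gene rose, which is near the shares of 5.34% lower and 2.86% higher over all genes. The Irs2 call held in 4 of 21 fits without 1 library.

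The list of branched-chain amino acid breakdown and ketone use had the most lower calls among the metabolic lists: 9 of 24 tested genes fell, and 1 rose. The 9 belong to branched-chain amino acid breakdown. Bckdhb and Dbt are subunits of the branched-chain ketoacid dehydrogenase, the committed step. Dbt was 72.9, 66.1, 59.3 and 64.3 CPM in chow novirus hearts, 36.5 to 59.4 (median 50.1) in HFD novirus hearts, 48.2 to 59.7 (median 55.8) in chow Renin hearts, and 45.6, 44.7, 46.5, 40.4 and 47.3 in HFD Renin hearts. The Renin groups did not overlap, the novirus groups met at their edges, and Dbt fell by 0.35 ± 0.06 (adjusted p = 0.00223). Bckdhb fell by 0.51 ± 0.08, and in HFD novirus replicate 4 it was 60.9 CPM against 37.6 to 42.7 in the other 5. The phosphatase Ppm1k, which activates that complex, fell by 0.48, the transaminases Bcat1 and Bcat2 by 0.64 and 0.19, and the downstream Ivd, Aldh6a1, Acadsb and Mccc2 by 0.30, 0.31, 0.25 and 0.15. Bcat1 had -0.06 without renin and -1.10 under renin (difference, adjusted p = 0.00798). The median of the whole list, ketone genes included, was -0.16 (-0.13 and -0.18 in the strata), and 18 of 24 had the same sign in both. Lower calls were 7 to 11 when 1 library was left out, and 2 with either score as a covariate.

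Kyat3, a kynurenine aminotransferase, was 31.5, 30.2, 25.8 and 33.1 CPM in chow novirus hearts and 20.4, 20.9 and 27.4 (lowest, median, highest) in HFD novirus hearts. In Renin hearts the level was 20.4, 24.1 and 27.3 on chow and 12.2, 15.4, 16.8, 16.8 and 14.6 on HFD. The Renin groups did not overlap, and without renin HFD replicate 4, at 27.4, reached into the chow range. Kyat3 fell by 0.57 ± 0.07 (adjusted p = 6.69e-05). Gnmt, glycine N-methyltransferase, fell by 1.22 ± 0.23, from a median of 1.84 to 0.803 CPM, and Abat, which degrades GABA, by 1.32 ± 0.28. Gcdh, of lysine breakdown, had HFD hearts below chow hearts in both strata and fell by 0.36.

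**Figure D3:**
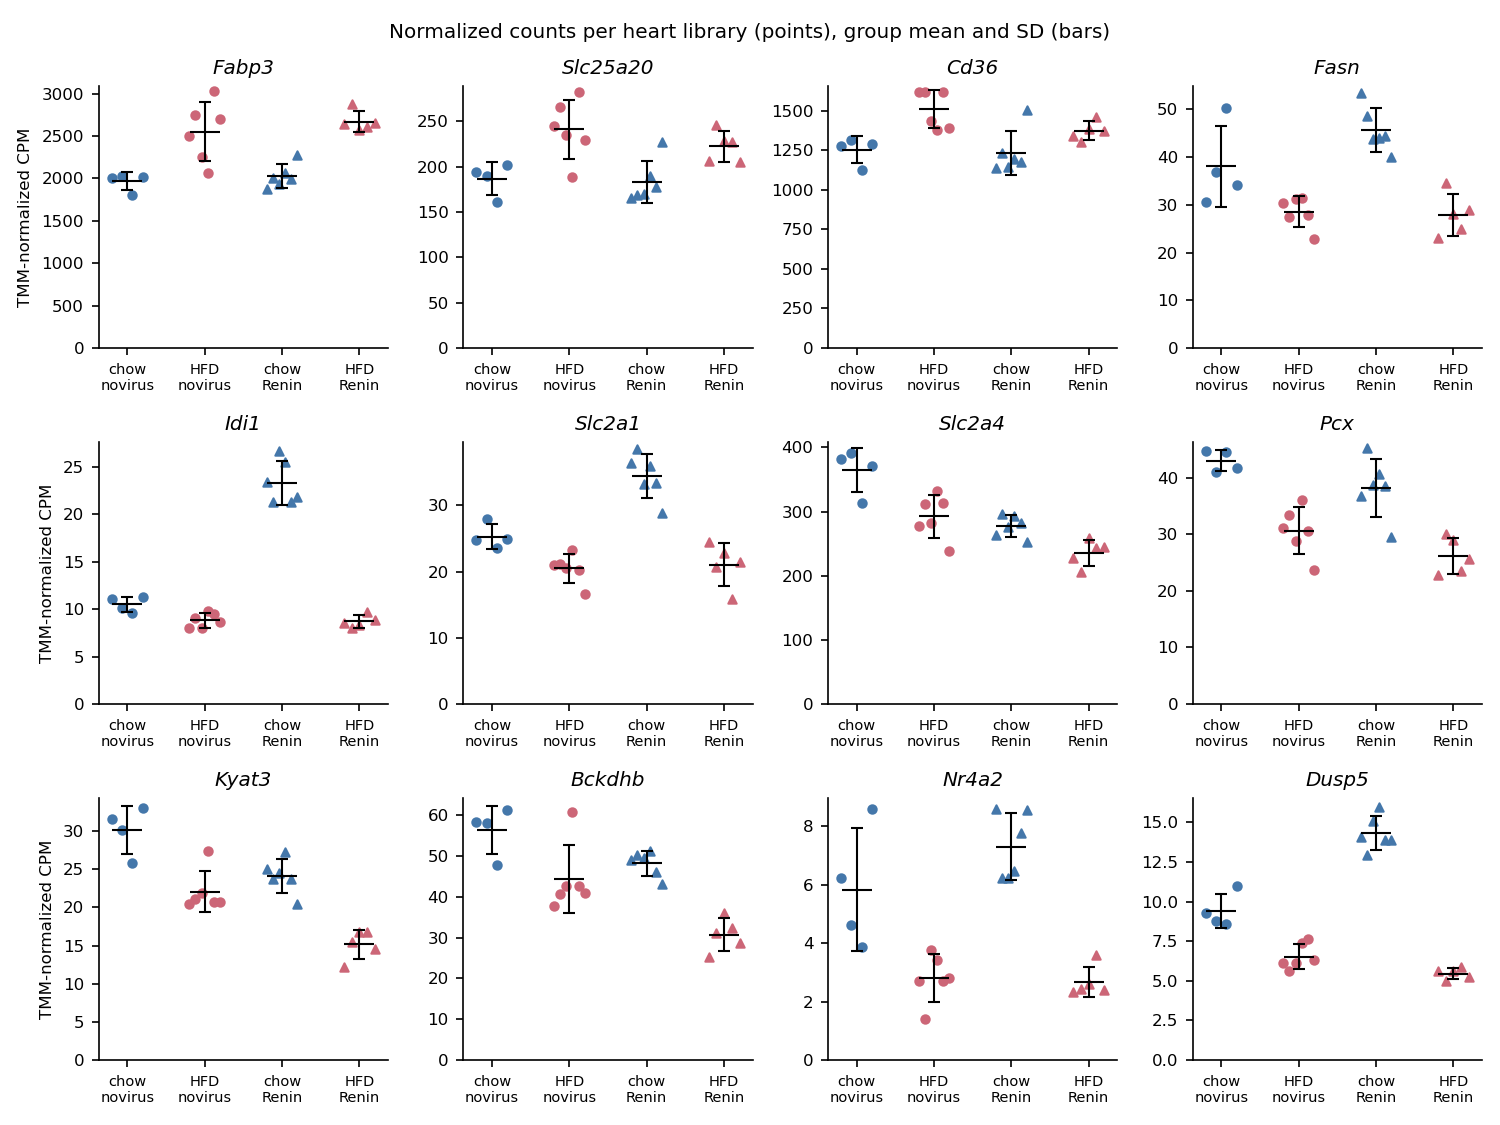
TMM-normalized CPM (y axis, from 0) of 12 genes in each library, with chow in blue, HFD in red, circles for novirus and triangles for Renin, and bars at the group mean with SD (n = 4, 6, 6 and 5). Fabp3 is higher in all HFD hearts of each vector group, Idi1 is high in the 6 chow Renin hearts, and Slc2a1, Nr4a2 and Dusp5 are lower in all HFD hearts of each vector group.

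Respiratory chain transcripts of the nucleus were not called. Of 77 tested nuclear oxidative phosphorylation genes 0 were called (edgeR; DESeq2 called 1 higher), and their log2 values lay between -0.11 and 0.14. All 13 mitochondrially encoded genes had a positive fold change in both strata, with a median of 0.16, and 3 rose. mt-Nd3, a complex I subunit, was 1065, 893, 926 and 989 CPM in chow novirus hearts and 1148, 1393 and 1663 (lowest, median, highest) in HFD novirus hearts. With renin the values were 945, 993 and 1040 on chow and 987, 1167, 1141, 1270 and 1090 on HFD. It rose by 0.35 ± 0.07 (adjusted p = 0.00636), also without renin alone (0.53 ± 0.09, adjusted p = 0.036). mt-Nd2 and mt-Atp6 rose by 0.23 and 0.20, and the number called was 1 to 7 over fits without 1 library, with 7 without HFD Renin replicate 1 and 1 without any of chow Renin replicates 1 to 5, HFD novirus replicate 2 or HFD Renin replicates 2 to 5. The share of all mitochondrially encoded reads moved with these genes, as given above, and its part in them was not tested.

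HFD hearts lay below chow hearts in both strata for 65 genes (0.436% of those tested), 45 of them processed pseudogenes and 18 protein-coding. Nr4a2, an orphan nuclear receptor of the immediate early class (chromosome 2, 57106830 to 57124003), was 6.24, 4.62, 3.88 and 8.61 CPM in chow novirus hearts and 1.41, 2.76 and 3.78 (lowest, median, highest) in HFD novirus hearts. In the Renin stratum it was 6.23, 7.12 and 8.60 on chow and 2.34, 2.45, 2.61, 3.60 and 2.40 on HFD. It fell by 1.27 ± 0.16 (adjusted p = 6.69e-05), with -1.06 and -1.44 in the strata. Dusp5, a nuclear phosphatase that inactivates ERK (chromosome 19, 53529109 to 53542431), was 9.28, 8.79, 8.58 and 11 CPM in chow novirus hearts and 5.60, 6.22 and 7.64 in HFD novirus hearts. Chow Renin hearts had 13.0, 14 and 16, and HFD Renin hearts 5.60, 4.97, 5.65, 5.87 and 5.22. The HFD ranges of the vector groups overlapped, while all chow Renin hearts were above all chow novirus hearts. Dusp5 fell by 1.0 ± 0.11 (adjusted p = 2.55e-05) and was called in each stratum, at -0.53 and -1.39, with the difference also called (adjusted p = 6.36e-05).

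Of 26 immediate early genes 5 fell and none rose: Nr4a2, Dusp5, Nr4a1, Fosl1 and Myc. Fosl1 and Myc had 0.43 and 0.06 without renin and -2.06 and -1.05 under renin. The list's median was -0.18. The count was 3 without chow Renin replicate 1, 2 or 5, or HFD Renin replicate 1, 2, 3 or 5.

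Among the other protein-coding genes below chow in both strata was Kcnip2. Kcnip2, the subunit that sets the transient outward potassium current, was 160, 182, 160 and 190 CPM in chow novirus hearts, 72.0 to 159 (median 121) in HFD novirus hearts, 116 to 147 (median 133) in chow Renin hearts, and 66.5, 116, 102, 81.7 and 92.0 in HFD Renin hearts. It fell by 0.54 ± 0.12 (adjusted p = 0.00968), with -0.54 in each stratum. Vps16, Abcc1, Ube2ql1, Cldn12, Mettl13, Osbp2, Smyd3, Cdk18, Trmt9b, Nrg1 and Rragb were others not yet named. Nrg1 encodes neuregulin, a growth factor for cardiomyocytes, and Rragb a GTPase of amino acid sensing. They fell by 0.19 (Vps16) to 0.92 (Rragb).

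The largest protein-coding increases in both strata, apart from repeat-like genes given below, were Gm47985 (1.92), Kcnj14 (1.58), a potassium channel, Edn3 (1.54), an endothelin, and the olfactory receptor Olfr1396 (1.13). Those with the smallest adjusted p were Fabp3, Cd151, Cidea, Prkg1 and Dysf. Cd151, a tetraspanin of laminin-binding integrin complexes, was 159, 167, 163 and 156 CPM in chow novirus hearts, 168 to 193 (median 178) in HFD novirus hearts, 156 to 165 (median 159) in chow Renin hearts, and 200, 211, 198, 193 and 197 in HFD Renin hearts. The groups were apart in both strata, and Cd151 rose by 0.24 ± 0.04 (adjusted p = 0.000461). Dysf, dysferlin, which repairs muscle membranes, rose by 0.38 ± 0.06, and Prkg1, the cGMP-dependent kinase, by 0.43 ± 0.07. Lrrc4b and Cngb3 were among the largest decreases of both strata, at -1.37 and -1.28.

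Of 17 cardiac stress and hypertrophy genes the LIM protein Fhl1 rose by 0.41 and the adult myosin Myh6 fell by 0.21, and a single gene in each direction is near the shares over all genes. The strata differed in this list, with a median of -0.17 without renin and 0.44 under renin. The sign was the same in both strata for 6 of 17, and the difference between strata was called for 3. Of 32 fibrosis and matrix genes 8 rose and none fell: Postn (1.17), Col3a1 (0.73), Col6a3, Col15a1, Col5a2, Col5a1, Sparc and Col6a1 (0.32). The median of the list was 0.44, with 0.13 without renin and 0.73 under renin, and 17 of 32 had the same sign in both strata. The count was 22 without chow novirus replicate 3, which had the highest Postn of its group (49.0 CPM against 12.1 to 17.6). It was 3 to 5 without any 1 of the 11 Renin libraries or HFD novirus replicate 6, and 0 with either score. The Postn and Col3a1 calls held in 6 and 7 of 21 fits without 1 library. Summed fibroblast markers were 1188 to 2321 CPM in chow novirus, 1381 to 2672 in HFD novirus, 1117 to 1744 in chow Renin and 1561 to 2129 in HFD Renin hearts, and 0 of the 8 were called. All 8 had a positive fold change in both strata, with a median of 0.27 (0.17 without renin and 0.33 under renin), so they moved with the matrix genes. Their part in the matrix genes was not tested, and in whole tissue more cells of a type and more RNA per cell cannot be told apart.

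Of 25 tested inflammatory genes 5 fell and none rose: Il6, Spp1, Cxcl1, Ccl2 and Ccl7. Il6 was 2.05, 2.0, 2.17 and 2.24 CPM in chow novirus hearts and 0.870 to 2.17 (median 1.54) in HFD novirus hearts, and 6.08 to 9.91 (median 8.32) in chow Renin hearts against 1.63, 0.880, 1.61, 1.36 and 1.46 in HFD Renin hearts. It had -0.48 and -2.54 in the strata (difference, adjusted p = 1.43e-05). Spp1 was 51.0, 53.0, 43.3 and 43.3 CPM in chow novirus hearts and 40.9 to 55.9 (median 47.4) in HFD novirus hearts, against 175 to 222 CPM in chow Renin hearts and 40.5, 41.9, 45.0, 39.5 and 39.6 in HFD Renin hearts. Without renin Spp1, Cxcl1, Ccl2 and Ccl7 had 0.00, -0.17, 0.27 and 0.13, and the difference between strata was called for each of the 5. The count was 3 without any 1 HFD Renin library. Of 32 antigen presentation and interferon genes Rsad2 alone was called, at 0.32, which is near the share over all genes.

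Stress lists were split. Of 28 unfolded protein and integrated stress genes the transcription factors Atf4 (0.19), Atf6 (0.35) and Ddit3 (0.44) and the secreted factor Gdf15 (1.39) rose. The serine and asparagine synthesis genes Phgdh, Psat1 and Asns and the chaperone partner Sdf2l1 fell. Phgdh, Psat1 and Asns had 0.03, 0.11 and -0.10 without renin. The Gdf15 call (adjusted p = 0.0475) held in 4 of 21 fits without 1 library, and Gdf15 had 0.34 without renin and 2.09 under renin. With the central nervous score in the model 0 rose and 1 fell, and with the clock score 0 genes were called. The higher count was 2 without any of chow Renin replicates 1 to 5 or HFD Renin replicates 1, 2 or 5. Of 25 oxidative stress genes the catalase gene Cat (0.26) and Gsta1 (0.60) rose, and Slc7a11, Gclc and Txnrd1 fell. Slc7a11, a cystine transporter, had 0.13 without renin and -1.38 under renin (difference, adjusted p = 6.84e-05), and its chow Renin hearts, at 2.54 to 4.13 CPM, were above all others. The Slc7a11 and Gsta1 calls held in 10 and 9 of 21 fits without 1 library. The lower count of that list was 1 without chow Renin replicate 1, 2 or 4, or HFD Renin replicate 2, 3 or 4. The clock genes Ciart, Cry2 and Usp2 fell by 0.53, 0.24 and 0.18 of 20 tested. The Usp2 call held in 8 of 21 fits without 1 library. The lower count was 1 with the central nervous score in the model and 0 with the clock score, of which Ciart is itself a part. Of 22 heat shock genes Hspa8 (0.28) and Hspb8 (0.29) rose, where Hspb8 had 0.01 without renin and 0.54 under renin, and the count was 1 to 5 over fits without 1 library, with 5 without HFD novirus replicate 4.

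Other lists also lost calls with a score in the model. With the central nervous and the clock score, in that order, 1 and 1 genes of fatty acid uptake rose and 2 and 2 fell, and 1 and 1 fell at the pyruvate dehydrogenase gate. Of the mitochondrially encoded genes 1 and 1 rose, of the inflammatory genes 2 and 2 fell, and of the immediate early genes 2 and 3 fell. Of the oxidative stress genes 1 and 0 rose and 0 and 2 fell. No gene of the heat shock, cardiac stress or interferon lists was called with either score.

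**Figure D4:**
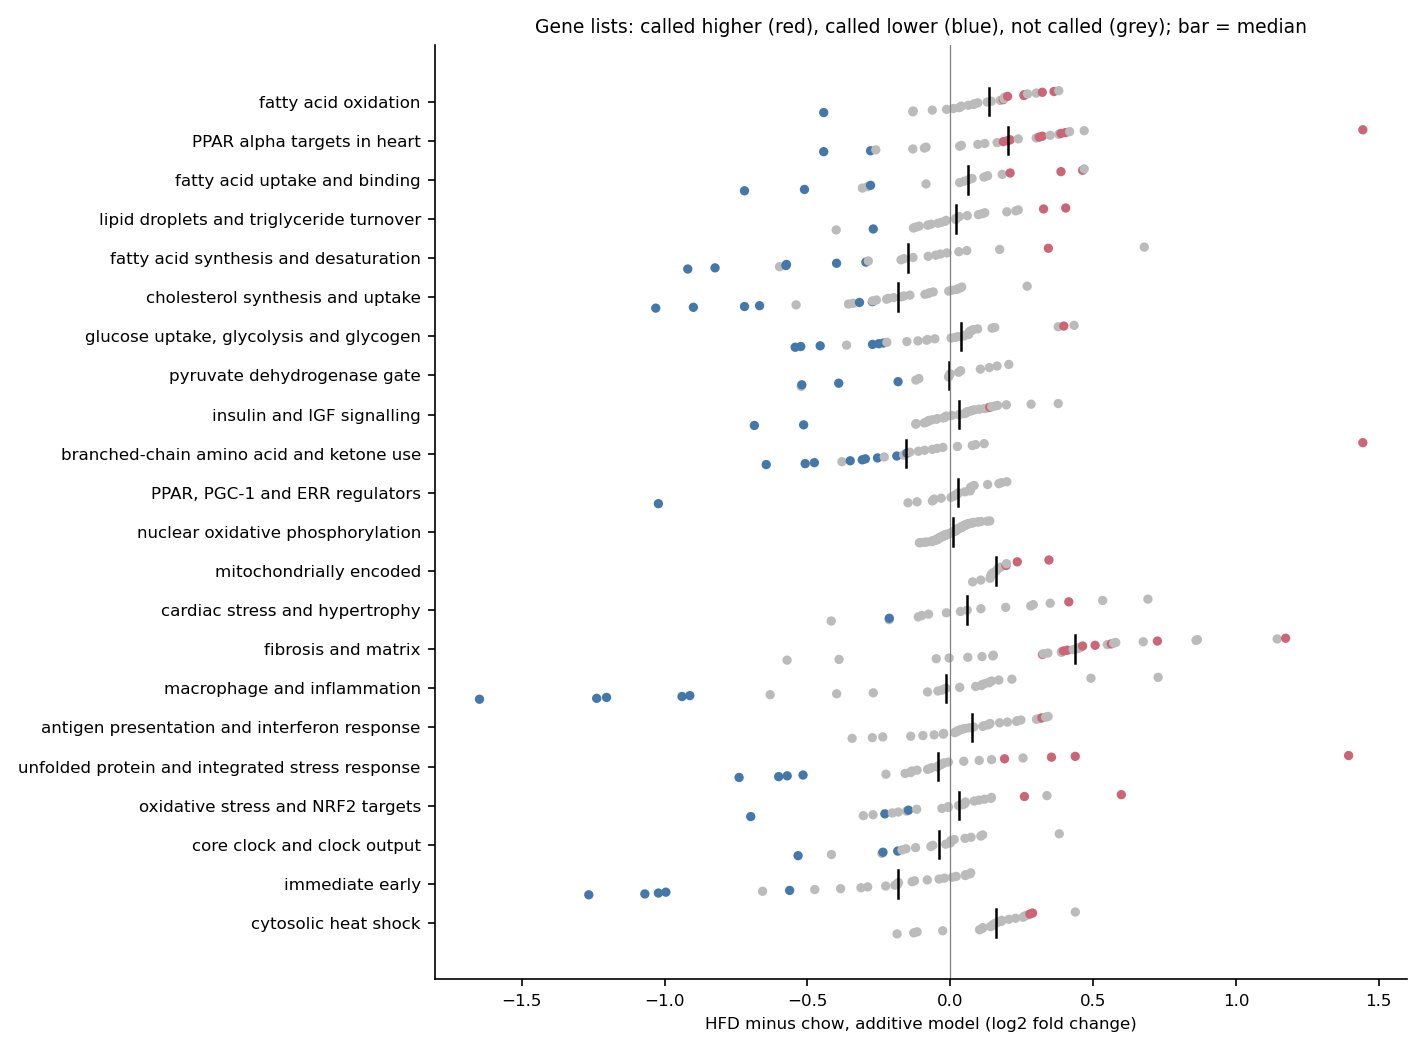
Each point is a tested gene of 1 of 22 lists (y axis), at its additive log2 fold change on HFD (x axis), red if called higher, blue if called lower and grey if not called, with a bar at the list's median. Points of the nuclear oxidative phosphorylation list are all grey and lie between -0.11 and 0.14, and the list of fibrosis and matrix genes has the highest median, 0.44.

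The 184 genes of opposite sign included Olig2, Ugt8a and Epha10, chosen by rule for the largest difference between strata. Olig2, a transcription factor of oligodendrocytes, was 0.0499, 0.111, 0.103 and 0.0973 CPM in chow novirus hearts, 0.0452 to 0.217 (median 0.164) in HFD novirus hearts, 0.476 to 0.811 (median 0.598) in chow Renin hearts and 0.125, 0.115, 0.107, 0.105 and 0.174 in HFD Renin hearts. The chow Renin hearts stood apart. Olig2 passed the filter on low counts through these hearts and was not tested in any fit that left out 1 of them, so its difference between strata is a description. Of 10 central neuron markers 1 was called lower in the additive model, of 8 oligodendrocyte markers 2 and of 8 astrocyte markers 3, and the interaction was called for 10, 8 and 6 of them. Olig2 is counted in the 2 and the 8 of the oligodendrocyte markers, and its part there is a description. The median of the neuron list was 0.53 without renin and -1.87 under renin. Their part in the additive calls was not tested, since the score is high in the chow Renin hearts alone and cannot be told apart from that group.

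Processed pseudogenes, copies of spliced transcripts put back in the genome, made up 13.82% of the lower calls and 2.361% of the genes tested. Of 352 tested 110 fell (31.25%, against 4.74% of protein-coding genes of all levels) and 1 rose, and 109 of the 110 were lower in both strata. Levels were low. Copies with a tested closest protein-coding gene had a median of 0.646 CPM if called lower and 1.14 CPM if not. In the fit on genes of at least 20 CPM, 1 processed pseudogene was called lower. Because salmon shares reads among near-identical transcripts, the level of such a copy is uncertain where it is close to an expressed gene. The 3 pairs shown here are stretches of 100 bases of a called pseudogene and of its closest protein-coding transcript, with the differing bases in capitals. Each is the ungapped stretch with the most differing bases, up to a limit of 6, inside the longest open reading frame of the closest transcript. The number of differing bases is thus bounded by that choice.
Gm4977: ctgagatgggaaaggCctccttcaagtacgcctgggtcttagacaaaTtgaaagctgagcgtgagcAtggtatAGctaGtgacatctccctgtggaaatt
Eef1a1: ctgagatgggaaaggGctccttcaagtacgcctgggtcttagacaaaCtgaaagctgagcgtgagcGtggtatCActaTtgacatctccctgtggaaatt
Gm12715: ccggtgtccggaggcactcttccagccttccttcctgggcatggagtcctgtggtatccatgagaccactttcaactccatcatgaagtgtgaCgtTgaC
Actg1: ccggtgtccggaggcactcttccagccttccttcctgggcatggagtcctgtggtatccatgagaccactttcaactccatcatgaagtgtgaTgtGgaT
Gm8730: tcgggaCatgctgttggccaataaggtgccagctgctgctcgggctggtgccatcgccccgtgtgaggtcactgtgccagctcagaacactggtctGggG
Rplp0: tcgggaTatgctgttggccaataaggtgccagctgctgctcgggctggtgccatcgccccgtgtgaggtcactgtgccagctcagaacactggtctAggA
Gm4977 (chromosome 9, 17732670 to 17733931) was 94.1% identical to Eef1a1 (chromosome 9, 78478449 to 78489151) over the alignment. The other copies, Gm12715 (chromosome 4, 103563402 to 103564529) and Gm8730 (chromosome 8, 102864845 to 102865798), were 99.6% and 98.7% identical to Actg1 (chromosome 11, 120345690 to 120348542) and Rplp0 (chromosome 5, 115559467 to 115563727), and the build is GRCm38 with the transcripts of GENCODE M21.

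Gm4977 was 6.54, 7.45, 7.55 and 6.28 CPM in chow novirus hearts and 1.99, 2.34 and 3.39 (lowest, median, highest) in HFD novirus hearts. The Renin hearts had 5.80, 8.94 and 13.9 on chow and 1.21, 1.99, 2.22, 2.79 and 3.41 on HFD. The groups were apart in both strata, and Gm4977 fell by 1.73 ± 0.17. Eef1a1, the translation elongation factor it copies, was 662, 639, 873 and 712 CPM in chow novirus hearts and 616 to 907 in HFD novirus hearts. In chow Renin hearts it was 738 to 852, and in HFD Renin hearts 705, 767, 766, 700 and 685, with a log2 fold change of -0.05 ± 0.07. Gm12715 fell by 1.98, with -1.94 without renin and -2.01 under renin, while Actg1 had -0.04. Gm8730 fell by 1.47, with -0.40 without renin and -2.29 under renin (difference, adjusted p = 4.82e-07), while Rplp0 had -0.01. Gm8730 was 8.47 to 11 CPM in the chow Renin hearts and 2.70 to 3.46 CPM in the chow novirus hearts.

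Of the 110 called copies 105 had a tested closest gene (66 genes), and the copies had a median log2 fold change of -1.57 against 0.01 for those genes, which ranged from -0.15 to 0.31 with 1 called lower and 2 higher. Eef1a1 was the closest gene of 9, Gapdh of 7 and Hspa8 of 5. The closest genes of called copies had a median of 156 CPM, and those of the copies not called lower 38.8 CPM. Identity was 96.9% and 97.3% in these sets. The summed level of the called copies, which the diet contrast itself chose, is given as a description. It was 159, 179, 147 and 155 CPM in chow novirus hearts, 69.2 to 100.2 in HFD novirus hearts, 241 to 375 in chow Renin hearts, and 62.8 to 89.6 in HFD Renin hearts. The 2 chow Renin hearts with the highest sums, replicates 1 and 2, also had the highest central nervous scores. How reads are shared between copy and gene was not tested, and the lower count was 98 to 118 when 1 library was left out, 59 when the central nervous score was in the model and 63 with the clock score.

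**Figure D5:**
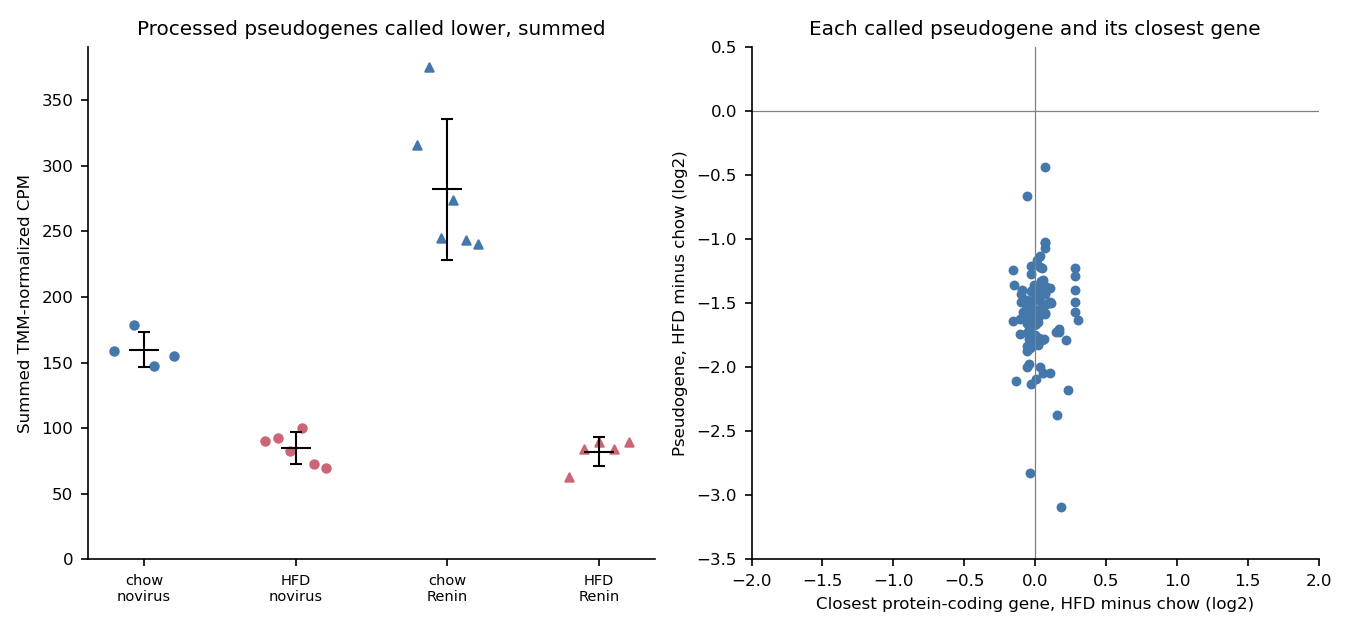
Left, summed TMM-normalized CPM of the 110 processed pseudogenes called lower, by library (points) with group mean and SD, where all HFD hearts lie below all chow hearts. Right, the additive log2 fold change of each called pseudogene (y axis) against that of its closest protein-coding gene (x axis), where the closest genes lie between -0.15 and 0.31.

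A set of 12 repeat-like genes, Gm10800, Gm10718 and relatives, rose by 2.38 to 3.10 on the log2 scale. Gm10800 was 2.65 to 28.6 CPM (median 9.13) on chow and 7.60 to 158 (median 53.0) on HFD, with 2.59 without renin and 2.76 under renin. Without renin its groups overlapped, with 3 of 6 HFD hearts above all chow hearts. Under renin 5 of 5 were above. Its call was lost with the central nervous score (edgeR, adjusted p = 0.106) and with the clock score (0.0508). These gene models lie in repeated sequence, so reads cannot be assigned to single members with certainty, and they are given as 1 uncertain signal.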

How the data were processed

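RNA of 21 hearts was sequenced. The submitters' processing notes name Salmon 1.10.2, DESeq2 1.40.2 and GRCm38. Per the file headers, the deposited tables of the authors hold an estimated count per transcript and a TPM value made by Salmon, and the TPM were used in no test. Each estimated count was summed to genes by GENCODE M21 identifiers (unmatched transcripts held 0.854% to 0.925% of reads) and rounded, where counts had been planned. Of 23718 genes with reads, filterByExpr kept 14910 (99.956% of the reads).

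The additive model had vector and diet terms over all libraries (edgeR 4.0.16, limma 3.58.1, R 4.3.3, TMM factors 0.881 to 1.09, glmQLFit and glmQLFTest, robust); strata and the interaction came from a fit with a term per group. Benjamini-Hochberg adjustment ran over all genes, with calls at 0.05. SE is the absolute log2 fold change over the square root of F, and values are TMM-normalized CPM. Copies were matched with blastn 2.17.0. Sequences are of GENCODE M21 transcripts. On simulated data for the diet contrast over 14910 genes with 200 changed, 94% of changes of 1 and 64% of changes of 0.5 (log2) were called, 5.39% of calls were of unchanged genes, and 0 genes were called without changes.

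Genes are named by rule: the 12 strongest per direction of same sign in both strata with at least 1 CPM, the 5 per direction of smallest adjusted p, up to 4 per direction of each of 22 pathway lists, 17 fixed metabolic genes, and 3 per direction of opposite sign. A further 34 called genes, members of the lists or with groups apart in both strata, were chosen after their values were seen. The members and lists were chosen with earlier results of these data known. Alternatives were DESeq2 1.42.0, other scalings and filters, thinning, score covariates, a replicate block and leaving out each library. Libraries of a group differed by more than sampling noise (lowest chi-square per degree of freedom 3.50 over 46 pairs). A few named genes are not reported here.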

Additional observations from a re-analysis of the deposited data

Results flagged for a closer look

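In the groups of 4 to 6 libraries, 15 of 152 group values had a highest or lowest library whose gap to the rest exceeded Dixon's 95% critical value, where chance gives about 1 in 20. Chow novirus replicate 3 was low for Fabp3 (1807 CPM against 2005 to 2029) and Decr1 (322 against 385 to 395), and high for Scd1 (32.5 against 14.2 to 14.7), Postn (49.0 against 12.1 to 17.6) and the clock score (-3.93). Chow Renin replicate 6 was high for Cd36 (1507 against 1136 to 1229) and Decr1 (509 against 311 to 382). HFD novirus replicate 4 was high for Kyat3 (27.4 against 20.4 to 21.9) and Bckdhb (60.9 against 37.6 to 42.7), nearer to chow in both. Without these libraries in turn, 1732, 1038 and 1595 genes were called. Single values were Fabp3 at 2877 in HFD Renin replicate 2, Scd1 at 27.9 in HFD novirus replicate 3, Elovl6 at 1.75 in chow novirus replicate 1, Nr4a2 at 3.60 in HFD Renin replicate 4, Hk1 at 198.5 in HFD Renin replicate 1, and the summed called pseudogenes at 62.8 CPM in HFD Renin replicate 1.

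Among 32 genes whose values were examined library by library, the diet effect differed between the strata by the interaction test for 6, beside the others given with the gene groups above. As the log2 effect under renin minus that without renin, it was -1.36 for Elovl6, -1.17 for Idi1, -0.86 for Dusp5, -2.06 for Il6, -2.96 for Olig2 and 0.43 for Hk1. Elovl6, Idi1, Dusp5 and Il6 had the larger decrease under renin, where the chow hearts were the high group. Olig2 was above 0 without renin, and since it passed the filter on low counts only through the chow Renin hearts, its value is a description.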

How the results depend on the processing

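DESeq2 called 2003 genes, genes of at least 20 CPM gave 391, and the covariate fits gave 231 (clock score) and 161 (central nervous score), against 1223. Calls of the same sign in both strata, 1037, came to 381, 229 and 106 under the last 3. Without renin, 10 genes became 123 (DESeq2), 3 (at least 20 CPM), 0 (replicate block), 5 (clock), 93 (central nervous), 3 (libraries thinned to the smallest) and 5 (the stratum's own libraries). Under renin, 3209 became 955 (at least 20 CPM) and 33 (central nervous score). The cause of these shifts was not tested, except that the 20 CPM limit leaves fewer genes to test. Leaving out 1 library gave 642 to 1732 genes in the additive model, 625 to 1347 of the same sign, 0 to 56 without renin, 2401 to 3488 under renin and 1207 to 1841 for the interaction. Of the 107 called genes named by rule, 0 changed sign, 77 kept the call in each fit without 1 library, and 36 and 34 were called with the clock and the central nervous score. Among those not called, Ppara (0.08) had -0.15 and -0.29 with these scores, Hk2 (0.00) -0.05 and -0.12, and Ucp3 (-0.26) 0.04 with the clock score. Whether the replicate numbers pair the hearts cannot be told. Of 28 same-number pairs 12 had a correlation over 0.1 (range -0.25 to 0.41), and 8 of 21 libraries correlated best with their own number. The values to be met without pairing were not computed. With the replicate block the additive count was 871 (798 shared), and 3408 under renin.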
